A study of Mus musculus with 17 samples.

Results

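Motile cilia genes encode the parts of the beating cilium and the factors that build it. A set of 34 of them was examined here among the 26556 genes counted in astrocytes of the mouse thalamus and cortex. The set was taken as a fixed list of symbols, which had been chosen with results of these same libraries known, so that its levels and fold changes between the regions are given as a description. All 34 genes were present in the counts. They fall by role into the transcription factor *Foxj1*, 4 genes of the radial spokes, 5 of the outer dynein arms, 3 of other dyneins, 4 of the central apparatus, 5 of the axonemal ruler, the nexin link and the tether of the inner arms, 7 of the doublet lumen and tektins, and 5 others.

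The study asked whether astrocytes and neurons of a brain region have molecular features of that region in common. All 17 libraries came from Gfap::GFP mice of the FVB strain at postnatal day 7 (P7), and no treatment is given for any group. Somatosensory cortex gave 4 libraries (Cortex, replicates a to d). There were 13 libraries from thalamic nuclei, with 5 from the dLG (dorsolateral geniculate, visual), 4 from the VPM (ventral posteromedial, somatosensory), and 4 from the MGv (ventral part of the medial geniculate, auditory). The tissue of 4 brains was pooled for each library, slices were dissected, and cells were purified by fluorescence-activated cell sorting (FACS). In these mice a *Gfap* promoter drives the green fluorescent protein, so that any cell in which that promoter is active can enter the gate, astrocyte or not.

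Motile cilia carry a ring of doublet microtubules around a central pair. Dynein arms on the doublets slide them against each other, and radial spokes and the central apparatus control the arms. *Foxj1* and the RFX factors switch on the genes of this machine. In the brain, motile cilia are known from the ependymal cells that line the ventricles and move the cerebrospinal fluid, and from the choroid plexus epithelium. Ependymal cells arise from radial glia and mature over the first postnatal weeks. Parenchymal astrocytes carry a single primary cilium, which lacks the central pair and does not beat.

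The total per library was between 18213687 and 21519981 counts, except in Cortex a, which held 50366363. The limit of detection was taken as 3 counts, or 0.0648 to 0.167 CPM by library, where CPM are counts scaled by library depth. It covers counting error only. Between 21052 and 23365 genes had a count in 16 libraries and 17749 in dLG c, where 14 of the 34 genes had none. Summed levels of 10 astrocyte markers were between 13539 and 14374 CPM in the cortex and between 6532 and 15875 CPM in the thalamus. Only MGv c (15875 CPM) reached the cortical range, the next highest thalamic library being dLG c at 9549 CPM. The cortical mean was 1.55 times the thalamic mean. Markers of the oligodendrocyte lineage (7 genes, between 6119 and 11113 CPM) and of neurons (10 genes, between 705 and 1936 CPM) were also present in all libraries.

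The summed level of the 34 genes varied little in the thalamus and widely among the cortical libraries. It was 94.9 CPM in Cortex a, 176 in Cortex b, 238 in Cortex c, and 468 in Cortex d. In the thalamus it was between 79.4 and 93.9 CPM in the 5 dLG libraries, between 79.6 and 90.5 in the 4 VPM libraries, and between 86.7 and 99.8 in the 4 MGv libraries. Cortex a therefore lay within the thalamic range, whereas the other cortical libraries lay above it. The cortical mean was 244 ± 160 CPM (SD, n = 4) and the thalamic mean 89.0 ± 6.81 CPM (SD, n = 13), a ratio of 2.75, which was 1.91 without Cortex d. Of the thalamic mean, 73.5 CPM came from 11 genes that had over 3 counts in all 17 libraries, with a ratio of 1.71. The other 23 genes had a thalamic mean of 15.5 CPM and a ratio of 7.68. They summed to 15.1 CPM in Cortex a and 275 CPM in Cortex d. Cortex a was also the most deeply sequenced library. Because these are bulk libraries, fewer cells that express a gene and less RNA per cell cannot be told apart.

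**Figure D1:**
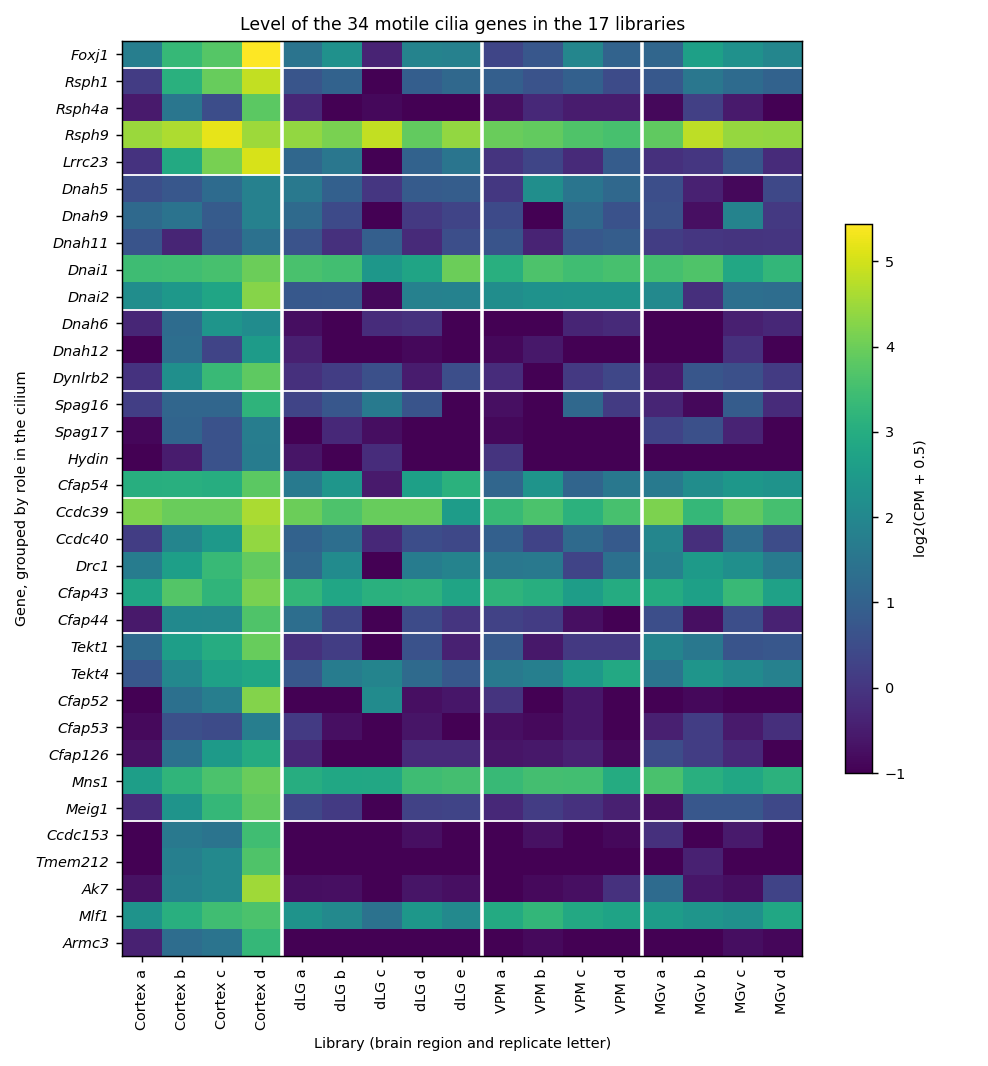
Level of each of the 34 genes (rows, grouped by role with white lines) in each of the 17 libraries (columns, grouped by region), as log2(CPM + 0.5) in colour. Most rows are bright in Cortex d, weaker in Cortex b and c, and dark in Cortex a and the thalamus, while *Rsph9*, *Ccdc39*, *Dnai1*, *Cfap43*, *Mns1*, and *Mlf1* are bright in all columns.

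Cortex d held the highest of the 4 cortical levels for 32 of the 34 genes and Cortex c for the other two, *Rsph9* and *Dnah6*. Among the 28 genes left by the filter on low counts, Cortex d was the highest of all 17 libraries for 24, against 9.87% of all 17856 genes tested. Cortex a was the lowest cortical library for 24 of these 28 genes, against 21.2% of all genes tested. Its level lay within the thalamic range for 31 of the 34 genes. In Cortex b, c, and d together, 19 of the 34 genes stood above each of the 13 thalamic libraries. For these counts and for the 32 of 34 genes above, the share over all genes was not computed, so nothing is read from them. For none of the 28 tested genes did the lowest cortical library lie above every thalamic library (3.09% of all genes tested did), and of the untested genes this held for *Armc3*.

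The libraries also differ in their number series, the leading digits of the library numbers in the labels. Cortex a and b share a series with 4 thalamic libraries, and Cortex c and d share another with 8. Within the series of Cortex a and b the summed level was 94.9 and 176 CPM in the cortex and between 79.6 and 91.9 CPM in the thalamus. Within the series of Cortex c and d it was 238 and 468 CPM in the cortex and between 83.0 and 99.8 CPM in the thalamus. In summed level, the cortical libraries were thus above the thalamic ones within each series, but Cortex a only narrowly. In its series, which holds no MGv library, *Foxj1* was at 2.87 CPM in Cortex a and reached 3.18 CPM in the thalamus. The 23 genes with 3 counts or fewer in a library summed to 15.1 CPM in Cortex a and 15.9 CPM in dLG d. What a series stands for is not stated, and dLG c is the only library of its series. All libraries were sequenced in a single flow cell, per the methods of the study.

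*Foxj1* encodes the forkhead factor that switches on the motile cilia genes. Its level was 2.87, 9.44, 13.0, and 42.9 CPM in Cortex a, b, c, and d, which was 133 counts in Cortex a and 890 in Cortex d. In dLG a to e it was 2.29, 4.30, 0.283, 3.18, and 3.08 CPM. In VPM a to d it was 0.764, 1.17, 3.35, and 1.58 CPM, and in MGv a to d 1.68, 5.80, 4.32, and 3.35 CPM. *Foxj1* was thus detected above 3 counts in each of the 17 libraries, and Cortex b, c, and d lay above every thalamic library while Cortex a lay among them. The cortical mean was 17.1 ± 17.8 CPM (SD, n = 4) against a thalamic mean of 2.704 ± 1.59 CPM (SD, n = 13), with a log2 fold change of thalamus over cortex of -2.65 ± 0.52 (SE).

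The radial spoke genes divided into 3 that were highest in Cortex d and lowest in Cortex a, like *Foxj1*, and *Rsph9*, which was highest in Cortex c. *Lrrc23*, a spoke component, was at 0.454, 6.98, 16.8, and 32.6 CPM in Cortex a to d, and at a lowest, median, and highest thalamic level of 0, 0.781, and 2.44 CPM. *Rsph1*, a protein of the spoke head, was at 0.605, 8.01, 14.9, and 28.3 CPM in Cortex a to d and at 0, 1.43, and 2.43 CPM as lowest, median, and highest in the thalamus. *Rsph4a*, which builds the spoke head with *Rsph1*, was at 0.194, 2.41, 0.940, and 13.6 CPM in the cortex, and no thalamic library exceeded 0.673 CPM. In all 3 genes, Cortex a lay inside the thalamic range.

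*Rsph9*, the remaining spoke head gene, had the highest mean CPM of all 34 genes. It was at 21.7, 24.5, 36.1, and 22.2 CPM in Cortex a to d, at 20.6, 17.3, 28.4, 14.3, and 20.5 CPM in dLG a to e, at 15.1, 14.3, 12.3, and 11.4 CPM in VPM a to d, and at 14.1, 27.2, 21.1, and 20.7 CPM in MGv a to d. Here Cortex d was not the highest library, and the cortical and thalamic ranges overlapped. Per kilobase of exon, the cortical mean level of *Rsph9* was 16.3 CPM and that of *Rsph4a* 1.17 CPM. In the thalamus the same levels per kilobase were 11.4 and 0.0445 CPM. *Rsph1* was at 9.43 CPM per kilobase in the cortex, nearer to *Rsph9*, and at 0.993 in the thalamus, nearer to *Rsph4a* on a linear scale.

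The outer dynein arm genes showed the smallest regional contrast of the role groups that have several genes, with a ratio of cortical to thalamic mean summed level of 1.62. *Dnai1*, an intermediate chain, led the group with 10.3, 10.6, 11.3, and 15.4 CPM in Cortex a to d and with 4.82, 10.8, and 15.3 CPM as lowest, median, and highest in the thalamus. The groups overlapped over most of their range. *Dnai2*, the partner chain, was at 3.93, 4.92, 6.43, and 18.9 CPM in Cortex a to d and did not exceed 4.45 CPM in the thalamus. The heavy chains *Dnah5*, *Dnah9*, and *Dnah11*, the motors of the arm, were at no more than 3.09 CPM in any cortical library, and *Dnah5* and *Dnah9* had their highest level in a thalamic library (4.07 CPM in VPM b and 3.18 CPM in MGv c).

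Among the other dyneins, *Dynlrb2*, a light chain, was at 0.454, 4.13, 9.79, and 13.8 CPM in Cortex a to d and between 0 and 1.14 CPM in the thalamus. The inner arm heavy chains *Dnah6* and *Dnah12* were too low in most libraries to pass the filter. *Dnah6* was at 0.302, 1.92, 4.65, and 3.91 CPM in Cortex a to d, and its highest thalamic level was 0.448 CPM. *Dnah12* was at 0, 2.02, 0.742, and 5.26 CPM in the same libraries, with a highest thalamic level of 0.427 CPM. The summed level of the 3 genes had a cortical mean that was 14.02 times the thalamic mean.

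In the central apparatus, *Cfap54* had the highest level and a pattern of its own. It was at 7.71, 7.81, 7.52, and 13.7 CPM in Cortex a to d, so that Cortex a did not stand below the others. In dLG a to e it was at 2.67, 4.73, 0.189, 5.82, and 8.22 CPM, in VPM a to d at 1.67, 4.52, 1.65, and 2.51 CPM, and in MGv a to d at 2.64, 3.99, 4.79, and 4.44 CPM. The cortical values lay above all thalamic ones except dLG e. *Hydin* and *Spag17*, which build the projections of the central pair, did not exceed 2.80 CPM in the cortex and had no count in 10 and 7 of the 13 thalamic libraries. Of the exonic length of *Spag17*, 15.7% overlaps other genes, mainly *Wdr3* on the opposite strand. *Spag16* was at 0.648, 1.67, 1.68, and 8.59 CPM in Cortex a to d and reached 2.64 CPM in the thalamus, in dLG c.

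Of the genes for the ruler, link, and tether, *Ccdc39* and *Cfap43* were well detected in all libraries, while *Ccdc40*, *Drc1*, and *Cfap44* were low in the thalamus. *Ccdc39*, which with *Ccdc40* forms the ruler that sets the repeat of the axoneme, was at 17.8, 15.04, 15.2, and 24.3 CPM in Cortex a to d and at 5.40, 11.7, and 17.4 CPM as lowest, median, and highest in the thalamus. *Ccdc40* was at 0.626, 3.29, 5.00, and 20.7 CPM in Cortex a to d and between 0.331 and 3.41 CPM in the thalamus. The 2 partners of the ruler thus differed in pattern, but 16.9% of the exonic length of *Ccdc39* overlaps *Ttc14* on the opposite strand, and the counts may hold reads of both genes. *Cfap44*, of the tether, was at 0.173, 3.69, 3.56, and 12.3 CPM in Cortex a to d and reached 2.01 CPM in the thalamus, whereas its partner *Cfap43* was at 6.37, 12.6, 8.80, and 17.3 CPM and between 5.55 and 9.73 CPM.

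The 7 genes of the doublet lumen and tektins held 5 with a low thalamic level. *Cfap126* was at 0.108, 2.11, 5.19, and 7.24 CPM in Cortex a to d, and its highest thalamic level was 0.914 CPM. *Meig1* was at 0.389, 4.57, 9.20, and 14.04 CPM with a thalamic maximum of 1.19 CPM. *Cfap52* was at 0, 2.11, 2.87, and 18.6 CPM in Cortex a to d, and in the thalamus it had no count in 7 libraries but 80 counts (3.78 CPM) in dLG c. This library thus had the highest thalamic level of *Cfap52* while it had no count for *Rsph1*, *Lrrc23*, *Tekt1*, *Meig1*, and *Cfap126*. *Tekt1* followed the same order of cortical libraries, at 1.79, 5.55, 7.37, and 14.8 CPM, and *Cfap53* did not exceed 2.85 CPM anywhere. *Tekt4* was highest in VPM d, at 6.85 CPM. *Mns1* was at 5.66, 8.80, 11.8, and 15.1 CPM in Cortex a to d and between 6.59 and 11.6 CPM in the thalamus, but 52.99% of its exonic length overlaps *Tex9* on the opposite strand.

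Of the other genes, *Tmem212* and *Ccdc153*, known as ependymal markers, and *Armc3* were close to absent outside the cortex. *Tmem212* was at 0, 2.95, 3.56, and 12.3 CPM in Cortex a to d, and of the 13 thalamic libraries only MGv b had counts (5, or 0.259 CPM). *Ccdc153* was at 0, 2.56, 2.28, and 10.5 CPM in the cortex and at most 0.433 CPM in the thalamus. *Armc3*, an armadillo repeat protein, was at 0.259, 1.97, 2.28, and 9.21 CPM in the cortex and had at most 2 counts in a thalamic library, so that its cortical mean was at least 20.5-fold higher than the detection limit of 3 counts per library. *Ak7*, an adenylate kinase of the axoneme, was at 0.108, 3.15, 3.56, and 22.7 CPM in Cortex a to d. Its thalamic levels were 0, 0.1001, and 1.88 CPM as lowest, median, and highest, the last in MGv a. *Mlf1*, a gene first known from leukaemia, was at 4.49, 7.91, 10.6, and 11.8 CPM in the cortex and between 2.17 and 9.03 CPM in the thalamus.

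**Figure D2:**
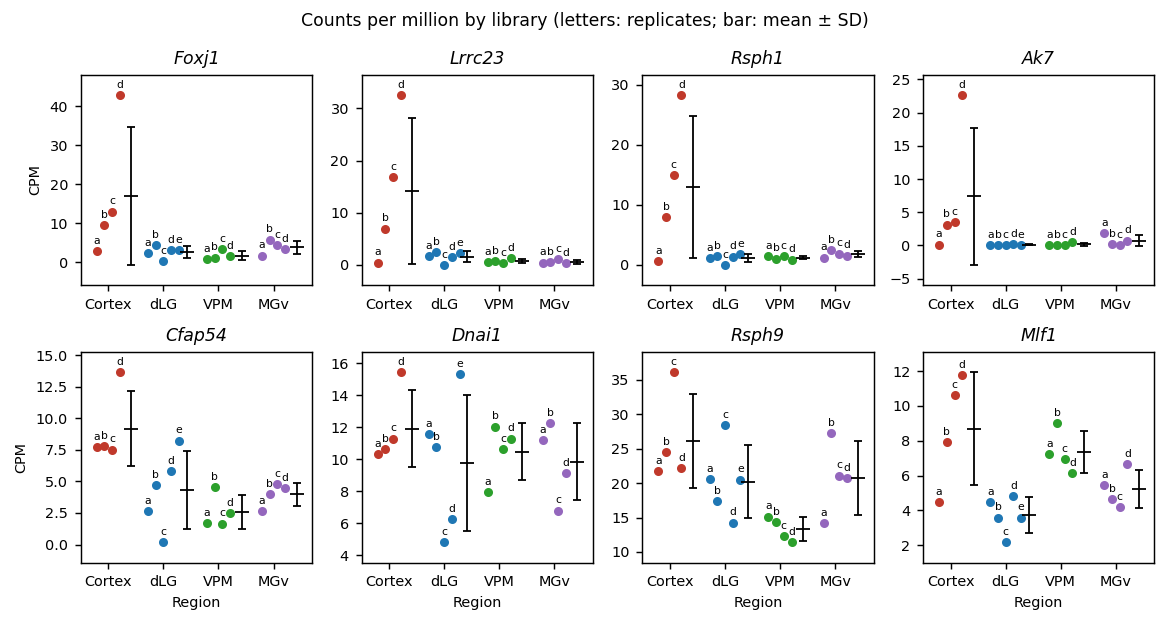
Level in CPM (linear vertical axes with their own scale) of 8 of the genes by region, with a point and a replicate letter for each library and the mean ± SD of each region beside it. In *Foxj1*, *Lrrc23*, *Rsph1*, and *Ak7* Cortex a lies with the thalamic libraries and Cortex d far above, while the regions overlap in *Dnai1*, *Rsph9*, and *Mlf1*.

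For thalamus against cortex, 28 of the 34 genes passed the filter, and *Dnah6*, *Dnah12*, *Hydin*, *Ccdc153*, *Tmem212*, and *Armc3* did not. At an adjusted p under 0.1, 16 of the 28 were called higher in the cortex, where 5.93% of all genes tested were, and 0 were called higher in the thalamus, where 5.45% of all genes were. Since the list had been chosen with this contrast known, nothing is read from the share. The median log2 fold change of thalamus over cortex was -2.22 over the 28 genes and 0.02 over all genes tested. The values for the most changed were -4.68 ± 0.86 (SE) for *Rsph4a*, -4.59 ± 0.90 for *Ak7*, -3.99 ± 1.24 for *Cfap52*, -3.77 ± 0.67 for *Lrrc23*, -3.74 ± 0.80 for *Cfap126*, and -3.55 ± 0.62 for *Meig1*. The other called genes were *Dynlrb2*, *Rsph1*, *Cfap44*, *Tekt1*, *Foxj1*, *Cfap53*, *Ccdc40*, *Dnai2*, *Drc1*, and *Cfap54*, between -3.53 and -1.32. The call on *Cfap54* was lost under 17 of 24 alternative settings, among them each that left out a cortical library, and that on *Cfap52* under 4, among them DESeq2 and the replicate block. The 12 tested genes that were not called were *Spag17*, *Spag16*, *Dnah9*, *Mlf1*, *Cfap43*, *Ccdc39*, *Dnah11*, *Rsph9*, *Tekt4*, *Dnah5*, *Dnai1*, and *Mns1*, with fold changes between -2.81 and -0.22.

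Among the fits that left out a library, the number of calls fell most without Cortex d. Without it, 6 of the 28 genes were called, *Lrrc23*, *Rsph1*, *Cfap126*, *Tekt1*, *Dynlrb2*, and *Meig1*, and all of these were among the 16. Of all genes tested in that fit, 3.35% were called higher in the cortex, against 5.93% with all libraries. *Foxj1* then had a log2 fold change of -1.61 ± 0.55 and was not called, *Rsph4a* of -2.79 ± 0.94, and *Ak7* of -2.87 ± 0.99. Without Cortex a, 22 of 33 genes were called (4.47% of all genes were), and 15 of them were among the 16. *Cfap54* was lost, and *Mlf1*, *Cfap43*, *Armc3*, *Ccdc153*, *Dnah6*, *Dnah12*, and *Tmem212* were gained. Leaving out Cortex b gave 12 calls among the 28 genes, and leaving out Cortex c also gave 12. The share of all genes called in these fits is not given, so nothing is read from the change in number.

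**Figure D3:**
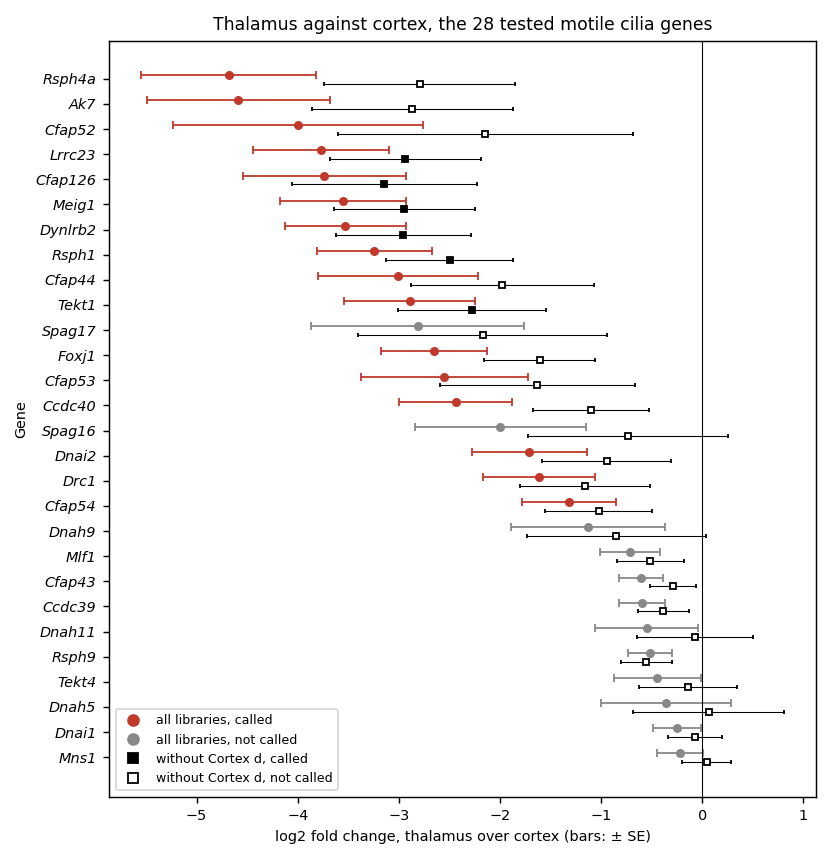
Log2 fold change of thalamus over cortex with its SE for the 28 tested genes, ordered by size. Circles use all libraries (red, called at an adjusted p under 0.1) and squares leave out Cortex d (filled, called). The values run from -4.68 (*Rsph4a*) to -0.22 (*Mns1*), and most called genes move toward 0 without Cortex d.

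Between the thalamic nuclei the genes were called no more often than all genes. In the fit of the 3 nuclei 22 of the 34 were tested, each nucleus against the mean of the other two. In the dLG 0 of the 22 were called higher (0.941% of all genes tested) and 0 lower (0.214%). In the MGv 0 were called higher (1.57%) and 0 lower (0.756%). In each of these comparisons, 2 of the genes had an unadjusted p under 0.05, against 10.3% and 13.0% of all genes, and DESeq2 called *Mlf1* lower in the dLG and *Tekt1* higher in the MGv. In the VPM, where many genes differed, 1 gene was called higher (7.07% of all genes) and 1 lower (9.78%), and these shares are near those of all genes, so that nothing is read from them. The median log2 fold change over the 22 genes was 0.01 for the dLG, -0.31 for the VPM, and 0.22 for the MGv, against -0.01, -0.02, and 0.02 over all genes.

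*Mlf1* was the gene called higher in the VPM. Its levels were 7.21, 9.03, 6.95, and 6.16 CPM in VPM a to d, 4.49, 3.58, 2.17, 4.82, and 3.58 CPM in dLG a to e, and 5.43, 4.66, 4.18, and 6.66 CPM in MGv a to d. All VPM libraries lay above all dLG libraries, but MGv d lay above VPM d. The log2 fold change was 0.70 ± 0.25 (SE). *Rsph9* was the gene called lower in the VPM, with a log2 fold change of -0.66 ± 0.21. Its means were 13.3 ± 1.72 CPM (SD, n = 4) for the VPM, 20.2 ± 5.25 (n = 5) for the dLG, and 20.8 ± 5.35 (n = 4) for the MGv, and dLG d and MGv a lay within the VPM range. The call on *Mlf1* was lost in 8 of the 13 fits that left out a thalamic library (dLG b, MGv a, b, or c, or any VPM library) and that on *Rsph9* in 5 (MGv b or d, or VPM a, c, or d), and both were lost at an adjusted p under 0.05. Without dLG c, the library with few detected genes, both calls stood, at log2 fold changes of 0.63 and -0.58.

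Of the genes not called, *Foxj1* had means of 2.63 ± 1.49 CPM (SD, n = 5) for the dLG, 1.72 ± 1.14 (n = 4) for the VPM, and 3.79 ± 1.73 (n = 4) for the MGv. Its ranges overlapped between the nuclei. *Dnai2* was at 3.96, 4.41, 4.45, and 4.43 CPM in VPM a to d, above its highest level in the dLG (3.13 CPM) and in the MGv (3.61 CPM). *Tekt1* had means of 0.468 ± 0.395 CPM for the dLG, 0.625 ± 0.448 for the VPM, and 1.99 ± 1.04 for the MGv, with a log2 fold change of 1.89 ± 0.70 in the MGv. All MGv libraries lay above all dLG libraries, and VPM a lay within the MGv range.

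Many of the genes varied together among libraries of the same region, and more so when the cortex was included. With log2 CPM centred within the 4 regions, the correlation of a gene with the mean of the other tested genes had a median Pearson r of 0.716 over the 17 libraries, against -0.009 for all genes tested with the mean of the 28, and 20 of the 28 genes were above 0.5. *Rsph1* (0.921), *Lrrc23* (0.911), and *Ccdc40* (0.875) were the most alike, and *Dnah11* (0.170), *Ccdc39* (0.120), and *Rsph9* (-0.115) the least. Over the 13 thalamic libraries alone the median r was 0.344, against 0.078 for all genes. There *Lrrc23* (0.800) and *Rsph1* (0.774) had the highest r, *Rsph4a* (0.050) and *Ak7* (0.058) were near 0, and *Cfap52* (-0.926), *Rsph9* (-0.666), *Tekt4*, *Dnah11*, *Spag16*, *Dynlrb2*, *Ccdc39*, and *Cfap43* were negative. Without dLG c, *Cfap52* had an r of 0.871 over the remaining libraries, and the median r of the 28 genes was 0.747. For the thalamic libraries alone no r without dLG c is given, and *Rsph1*, *Lrrc23*, *Drc1*, *Tekt1*, and *Meig1* had no count in it. The thalamic r values may thus rest in part on dLG c. These r values are descriptions, since the genes share libraries and their depths.

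Outside the lists used here, the 10 genes most like the mean of the 28 were *Drc7*, *Ttc29*, *Morn5*, *Eme2*, *Dpy19l2*, *Mycbpap*, *BC051019*, *Ppp1r32*, *Tcp11*, and *Ptpru*, with r between 0.863 and 0.910 over the 17 libraries. *Drc7* was at 0, 1.52, 2.92, and 8.39 CPM in Cortex a to d and at most 0.561 CPM in the thalamus. *Ppp1r32* was at 0.0864, 3.20, 10.5, and 16.5 CPM and at most 0.984 CPM. *Eme2* and *Ptpru* followed the order of the cortical libraries, but their means were higher in the thalamus, at 3.90 and 19.1 CPM against 3.12 and 14.1 CPM in the cortex.

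The promoters of the set were read from RefSeq on GRCm38.p6, from 250 bases before to 50 after each start. A promoter was at hand for 29 of the 34 genes, and those of *Foxj1*, *Rsph1*, *Rsph4a*, *Cfap53*, and *Cfap54* were not used here. RFX factors, which work with *Foxj1* on cilia genes, bind a palindrome whose arm has the core GTTGCC. This hexamer was present on either strand in 12 of the 29 genes (41.4%), against 14.1% of all 27025 genes. It occurred in 6 of the 11 genes that were called higher in the cortex and have a promoter, and in 6 of the other 18. The stricter palindrome was GTTNCC and GGNAAC with 1 to 3 bases between them, searched on both strands and partly overlapping the hexamer. It was in 0 of the 29 genes and in 0.903% of all genes. Forms that depart from these letters were not counted, such as gttgct just before GGCAAC in the windows of *Cfap44*, *Dnai2*, and *Hydin*. The forkhead motif TGTTTAC was in *Ak7*, *Cfap43*, and *Mlf1*, 3 of the 29 genes (10.3%), against 4.05% of all genes. A match is a run of letters in the window and not a measured binding site.

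The windows around the hexamer are shown for the 12 genes, because they let the bases beside it be compared. Each runs 5′ to 3′ on the strand of the gene, with 8 bases on either side of the hexamer, which is in capitals as GTTGCC or as its reverse complement GGCAAC. Where a gene has 2 hexamers, the one nearer the start is given. The first 6 genes were called higher in the cortex and the other 6 were not called or not tested.
Lrrc23, chr6:124779753-124779774, minus strand: ccgcccctGTTGCCataacaac
Tekt1, chr11:72361884-72361905, minus strand: tccgtccgGTTGCCatagagac
Dynlrb2, chr8:116504956-116504977, plus strand: cctgcctgGTTGCCtagcaacg
Cfap44, chr16:44394772-44394793, plus strand: gttgctatGGCAACcgcagtaa
Dnai2, chr11:114727385-114727406, plus strand: ggttgctaGGCAACtggtaaac
Drc1, chr5:30281374-30281395, plus strand: tttcccttGGCAACggcttgtt
Hydin, chr8:110266956-110266977, plus strand: gttgctgtGGCAACagatggta
Ccdc153, chr9:44240517-44240538, plus strand: gttttccaGTTGCCtggacaac
Spag16, chr1:69826859-69826880, plus strand: ggcaacgcGTTGCCgtagtaac
Mlf1, chr3:67373984-67374005, plus strand: ttacagagGTTGCCatagcagc
Mns1, chr9:72438536-72438557, plus strand: ttttggcgGTTGCCgggacaca
Tekt4, chr17:25471590-25471611, plus strand: gttccttaGGCAACcaggaacc

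Among the called genes, the printed hexamer lies near the start, which in part follows from the search window and from printing the nearer match. In *Drc1* it is at positions -11 to -6 relative to the start, in *Tekt1* at -15 to -10, in *Cfap44* at -19 to -14, in *Dnai2* at -26 to -21, in *Lrrc23* at -39 to -34, and in *Dynlrb2* at -51 to -46. Among the other 6 genes it also lay near the start in *Hydin*, at -13 to -8, *Tekt4*, at 8 to 13, and *Mns1*, at 15 to 20. It was farthest from the start in *Ccdc153*, at -152 to -147, *Mlf1*, at -105 to -100, and *Spag16*, at -103 to -98.

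Whole promoters are given for the 3 genes of the highest mean level with an entry, *Rsph9* (20.1 CPM over the 17 libraries), *Ccdc39* (13.4 CPM), and *Dnai1* (10.5 CPM), which were detected in every library and were not called between the regions. Letters run 5′ to 3′ on the strand of the gene, and none is in capitals because none of the 3 motifs occurs in these windows.
Rsph9, chr17:46144151-46144450, minus strand: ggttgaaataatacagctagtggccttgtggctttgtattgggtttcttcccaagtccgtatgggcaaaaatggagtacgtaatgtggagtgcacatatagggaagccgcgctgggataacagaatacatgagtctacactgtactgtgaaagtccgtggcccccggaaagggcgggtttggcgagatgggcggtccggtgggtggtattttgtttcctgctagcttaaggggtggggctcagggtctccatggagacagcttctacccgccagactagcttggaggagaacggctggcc
Ccdc39, chr3:33844261-33844560, minus strand: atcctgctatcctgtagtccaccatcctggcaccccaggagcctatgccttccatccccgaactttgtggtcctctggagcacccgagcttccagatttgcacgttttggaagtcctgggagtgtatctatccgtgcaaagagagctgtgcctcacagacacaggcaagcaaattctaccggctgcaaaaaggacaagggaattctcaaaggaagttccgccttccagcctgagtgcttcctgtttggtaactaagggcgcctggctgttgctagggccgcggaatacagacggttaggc
Dnai1, chr4:41569544-41569843, plus strand: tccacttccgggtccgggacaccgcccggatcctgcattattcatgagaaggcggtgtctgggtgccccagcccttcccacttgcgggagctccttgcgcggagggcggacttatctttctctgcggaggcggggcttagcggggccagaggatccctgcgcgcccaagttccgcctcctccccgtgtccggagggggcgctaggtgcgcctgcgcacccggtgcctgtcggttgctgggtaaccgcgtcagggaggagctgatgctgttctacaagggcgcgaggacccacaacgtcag

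Other genes of the motile cilium were taken from 7 lists by function. These lists were also chosen with earlier results of these data known. The shares of called genes and the adjusted p of their genes, here and below, are therefore a description. They are no independent test of the result on the main set, and nothing is read from the shares. Of 107 listed genes, 102 were in the counts and 85 were tested between the regions. Of these, 27 were called higher in the cortex (31.8%, against 5.93% of all genes) and 1 higher in the thalamus (against 5.45% of all genes), with a median log2 fold change of -0.94 against 0.02 over all genes. Without Cortex d, 10 of 85 were called higher in the cortex (11.8%, against 3.35% of all genes), and without Cortex a 38 of 94 (40.4%, against 4.47%). The 10 genes still called without Cortex d were *Deup1*, *Dnali1*, *Zmynd10*, *Cfap206*, *Enkur*, *Nme7*, *Cfap45*, *Cd24a*, *Tm4sf1*, and *Odf3b*.

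Of the 10 tested regulators of ciliogenesis, 2 were higher in the cortex. *Deup1*, which builds the deuterosomes where multiciliated cells form their many centrioles, was at 0.0216, 5.26, 17.9, and 21.6 CPM in Cortex a to d and at most 0.522 CPM in the thalamus (log2 fold change -6.00 ± 0.94 SE, edgeR adjusted p = 0.000244). *Ulk4* was the other (-1.41 ± 0.45, edgeR adjusted p = 0.0617). Further regulators of multiciliated cell formation did not pass the filter and were chosen for mention after their values were seen. *Mcidas*, which starts the multiciliated program, had 16, 13, 72, and 45 counts in Cortex a to d and at most 7 in a thalamic library. *Cdc20b* had 0, 19, 63, and 60 counts and *Foxn4* 0, 0, 22, and 47, with at most 1 count in a thalamic library for either, so that their cortical means were at least 10.4-fold and 5.01-fold higher than the limit of 3 counts per library.

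Of 13 tested dynein arm genes, 2 were higher in the cortex, the inner arm light chain *Dnali1* (-4.45 ± 0.85, edgeR adjusted p = 0.00178) and *Ttc25* (-1.68 ± 0.58, edgeR adjusted p = 0.0855), which docks the outer arm. *Dnali1* was at 0, 2.16, 7.22, and 13.9 CPM in Cortex a to d. Of 10 assembly factors, which load dynein arms in the cytoplasm, 2 were higher in the cortex, *Zmynd10* (-4.58 ± 0.80, edgeR adjusted p = 0.000798) and *Cfap300* (-0.68 ± 0.21, edgeR adjusted p = 0.0571). *Cfap300* was at 10.9, 14.4, 14.9, and 12.9 CPM in Cortex a to d and so lacked the spread of the others.

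Of 16 tested genes of the radial spokes and nexin link, 8 were higher in the cortex, led by *Cfap206* (-3.56 ± 0.73, edgeR adjusted p = 0.00349), *Iqcg* (-2.10 ± 0.47, edgeR adjusted p = 0.00695), and *Iqca* (-2.77 ± 0.64, edgeR adjusted p = 0.00874). Without Cortex d, 1 of the 16 was called. Of 12 tested central apparatus genes 2 were higher in the cortex, *Spag6l* (-2.42 ± 0.53, edgeR adjusted p = 0.00529) and *Cfap70* (-3.88 ± 1.17, edgeR adjusted p = 0.0462), and without Cortex d none was.

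Of 15 tested genes of the doublet lumen and tektins, 5 were higher in the cortex and 1 in the thalamus. Without Cortex d, 3 were higher in the cortex and 0 in the thalamus. *Nme7*, which also belongs to the microtubule-nucleating gamma-tubulin complex of cells without motile cilia, was at 47.0, 39.1, 46.0, and 39.6 CPM in Cortex a to d and between 13.3 and 26.8 CPM in the thalamus (-1.22 ± 0.15, edgeR adjusted p = 1.74e-05). Its cortical libraries lay close together and above all thalamic ones. *Enkur* (-3.76 ± 0.73, edgeR adjusted p = 0.00211) and *Cfap45* (-4.53 ± 1.00, edgeR adjusted p = 0.00619) followed the order of *Foxj1* among the cortical libraries.

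Of 9 tested ependymal genes outside the axoneme, 6 were higher in the cortex, with a median log2 fold change of -3.35. *Cd24a*, a surface glycoprotein of ependymal cells that is also made by immature neurons, was at 76.9, 110, 118, and 94.7 CPM in Cortex a to d and between 6.94 and 40.4 CPM in the thalamus (-2.10 ± 0.29, edgeR adjusted p = 5.42e-05). It stood above the thalamic range in all cortical libraries, Cortex a included. *Tm4sf1* was at 1.04, 8.26, 12.02, and 35.4 CPM (-3.95 ± 0.72, edgeR adjusted p = 0.00115) and *Odf3b* at 0, 3.29, 5.04, and 12.7 CPM (-5.83 ± 1.13, edgeR adjusted p = 0.00208). Without Cortex d, 3 of the 9 were called. The summed level of the list was between 82.8 and 178 CPM in the cortex and between 9.82 and 51.8 CPM in the thalamus. *Cd24a* alone made up most of this sum in each cortical library. In Cortex a the sum of 82.8 CPM was nearly all *Cd24a* (76.9 CPM), so it says little of the rest of the list.

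**Figure D4:**
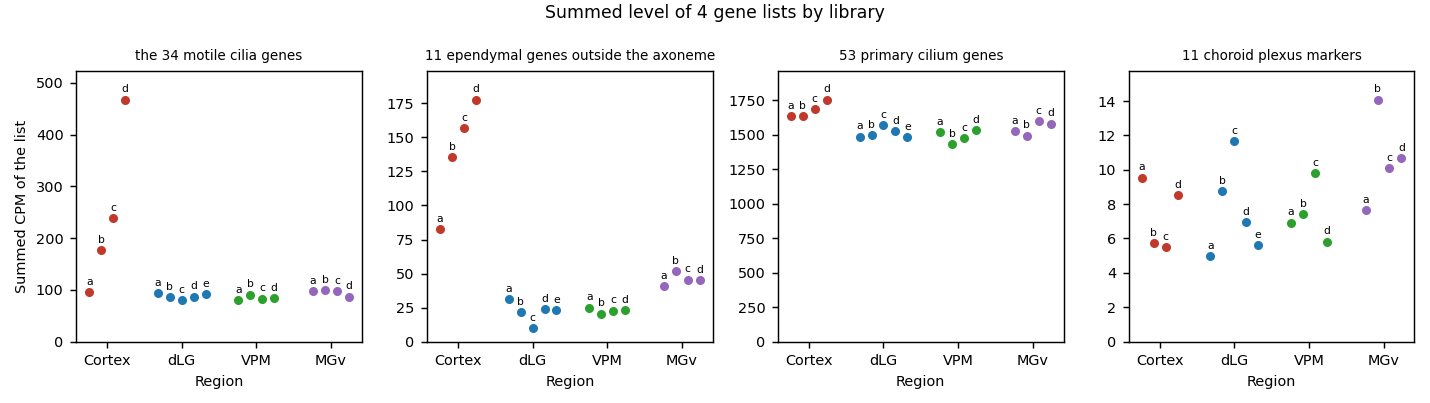
Summed level in CPM (linear axes from 0) of 4 gene lists by region, with a point and a replicate letter for each library. The 34 motile cilia genes spread from 94.9 to 468 CPM in the cortex and stay between 79.4 and 99.8 CPM in the thalamus, whereas the primary cilium list stays between 1436 and 1756 CPM and the choroid plexus markers stay under 15 CPM. In every cortical library most of the ependymal sum is *Cd24a*. The other motile lists, which have a smaller contrast between the regions, are not drawn.

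The genes of the primary cilium and of transport along it, which astrocytes also use, were detected in all libraries at a higher summed level than the motile lists. Their summed level was 1638, 1638, 1688, and 1756 CPM in Cortex a to d and between 1436 and 1601 CPM in the thalamus, so that all cortical libraries lay above all thalamic ones, with a ratio of the means of 1.11. Of 53 genes tested, 7 were higher in the cortex (5.93% of all genes were) and 0 in the thalamus (5.45% of all genes were), with a median log2 fold change of -0.19, and without Cortex d 1 was called, *Arl6*. The lowest p were those of *Arl6* (-0.54 ± 0.15, edgeR adjusted p = 0.0275), *Tmem67* (-0.92 ± 0.26, edgeR adjusted p = 0.0287), and *Tctn2* (-0.65 ± 0.20, edgeR adjusted p = 0.0517). Some motile lists had a ratio of summed means about as low, 1.10 for the ciliogenesis regulators and 1.18 for the doublet lumen and tektins. The ratio was 1.30 for the dynein arm genes, 1.34 for the central apparatus, and 1.44 for the assembly factors. Only the radial spoke and nexin link list (2.0) and the ependymal list (4.69) were higher.

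Between the nuclei, 7 of 72 tested genes of the 7 motile lists were lower in the VPM (9.72%, against 9.78% of all genes) and 0 higher. They were *Rfx2* (-1.68 ± 0.50, edgeR adjusted p = 0.047) and *Rfx3* (-0.87 ± 0.26, edgeR adjusted p = 0.0488), which encode RFX factors, the inner arm heavy chain *Dnah2* (-1.11 ± 0.34, edgeR adjusted p = 0.0499), and of the central apparatus *Cfap100* (-1.22 ± 0.22, edgeR adjusted p = 0.00693), *Cfap46* (-3.14 ± 0.90, edgeR adjusted p = 0.0422), *Spef1* (-1.30 ± 0.41, edgeR adjusted p = 0.0579), and *Cfap57*. Of 52 primary cilium genes 5 were lower in the VPM (9.78% of all genes were), so that nothing is read from the count. The lowest p were those of *Gpr161* (-1.25 ± 0.28, edgeR adjusted p = 0.0164), *Bbs1* (-0.84 ± 0.25, edgeR adjusted p = 0.048), and *Kif3b* (-0.76 ± 0.23, edgeR adjusted p = 0.048). In the MGv 2 of the 72 were higher (1.57% of all genes were), *Rfx2* (1.602 ± 0.43, edgeR adjusted p = 0.0904) and *Cd24a* (1.17 ± 0.20, edgeR adjusted p = 0.00715). In the dLG none of the 72 was called (0.941% of all genes were called higher and 0.214% lower).

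Markers of other cell types were followed beside these values. The 11 choroid plexus markers summed to between 5.49 and 9.54 CPM in the cortex and between 4.96 and 14.1 CPM in the thalamus, and *Ttr*, the most abundant transcript of that epithelium, had at most 6 counts in any library. Their sum was no higher in Cortex d (8.54 CPM) than in Cortex a (9.54 CPM), and 0 of the 5 tested were called between the regions. The 6 tanycyte markers summed to 28.9, 39.1, 44.2, and 30.6 CPM in Cortex a to d and to between 8.37 and 70.1 CPM in the thalamus, with *Rax*, their defining factor, at no more than 6 counts. Of the 5 tested, *Crym*, *Adm*, and *Gpr50* were called higher in the cortex, with and without Cortex d, and the median log2 fold change was -2.17. The 8 markers of neural stem cells and progenitors summed to between 5344 and 6381 CPM in the cortex and between 2024 and 3598 CPM in the thalamus, and most of this in the cortex was *Slc1a3*, which astrocytes share. Of these 8, *Prom1* and *Slc1a3* were called higher in the cortex and 1 other gene higher in the thalamus, with a median log2 fold change of 0.11. Pericyte and meningeal markers (6 genes) summed to 38.2, 41.9, 62.8, and 65.6 CPM in Cortex a to d, and to between 2.51 and 32.5 CPM in the thalamus, so that they were higher in Cortex c and d, as were the motile cilia genes. Of the 5 tested, *Pdgfrb* was called higher in the cortex and *Dcn* higher in the thalamus. The part of these cell types in the result was not tested. Endothelial (6 genes) and microglial (6 genes) markers summed to at most 6.78 and 19.7 CPM in the cortex and to at most 51.6 and 91.8 CPM in the thalamus.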

How the data were processed

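The authors purified GFP-positive cells by FACS, prepared libraries with the SMARTer Ultra Low kit, which does not mark the strand, sequenced them, trimmed adapters, mapped reads to GRCm38 (mm10) with STAR 2.7.0d, and obtained read numbers per Ensembl gene from featureCounts (Subread 1.6.4). They deposited raw counts per gene and library, without normalization. The strand setting is not given in the sources used here, so overlap with other exons was computed from the GENCODE annotation and is given where it is above 10% in a gene whose level is described.

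Of the 26556 identifiers, 26548 were matched to symbols. *Dnai1* and *Dnai2* are listed as Dnaic1 and Dnaic2. CPM were scaled by TMM factors (edgeR 4.0.16, R 4.3.3). Thalamus and cortex (13 and 4 libraries) and each nucleus against the mean of the others (13 libraries) were compared with edgeR's robust quasi-likelihood test after filterByExpr, with Benjamini-Hochberg adjustment over all genes and calls at an adjusted p under 0.1. The SE is the absolute log2 fold change divided by the square root of F. Pearson r used log2(CPM + 0.5). Labels do not say that libraries come from separate litters, so the spread may be partly technical.

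The 34 genes and the lists were chosen with earlier results of these data known. Values by library are given for *Foxj1*, for the gene of the highest mean CPM in each role group, and for called genes (the 6 with the largest change per comparison). Other genes are described as examples chosen after their values were seen. In the other lists the called genes with the 3 lowest p were named, and outside them the 10 genes most like the mean. Results on some listed genes are not reported here. Alternatives were DESeq2 1.42.0, DESeq2 size factors, no filter, a minimum of 10 counts per library, a threshold of 0.05, a replicate block, a covariate for the number series, 1 fit of the 4 groups, and leaving out each library. On simulated data with 200 changed genes, of which 191 were tested between the regions, the test recovered 64.4% and 10.2% of its 137 calls were false.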

Additional observations from a re-analysis of the deposited data

Results flagged for a closer look

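In groups of 4 or 5 libraries, the level of 14 genes and the summed level were searched for a library far from the others, with Dixon's critical values for the gap over the range. This was done in 60 groups, and 8 cases were found. The critical values are set so that chance flags about 1 in 20 independent groups. That rate does not apply here, because many of the genes vary together. Some of them were also chosen for a large change between the regions in these same libraries. The cases are therefore a description, and nothing is read from their number. Cortex d was far above the other cortical libraries in *Cfap54* (13.7 CPM, others between 7.52 and 7.81), *Rsph4a* (13.6 CPM, others between 0.194 and 2.41), *Ak7* (22.7 CPM, others between 0.108 and 3.56), and *Cfap52* (18.6 CPM, others between 0 and 2.87). The library dLG c was far above the other dLG libraries in *Cfap52* (3.78 CPM, others between 0 and 0.151) and far below them in *Meig1* (0 CPM, others between 0.573 and 0.795). Near the limit of detection, dLG a was far above the others in *Rsph4a* (0.327 CPM, others between 0 and 0.0472), and MGv b was the only MGv library with a count for *Cfap52* (0.0518 CPM).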

How the results depend on the processing

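The 16 genes called higher in the cortex became 11 at an adjusted p under 0.05, 15 with DESeq2 size factors in edgeR, 20 with the number series as a covariate, 21 with DESeq2, 21 without a filter, and 21 in a fit of 4 groups. In this section the share of all genes called under each setting is not given, so changes in number may follow changes over all genes. Requiring at least 10 counts in every library left 7 genes to test and 0 calls, since that filter removes genes that are low in the thalamus. Leaving out each library gave between 6 (Cortex d) and 22 (Cortex a) calls, and 0 genes were called higher in the thalamus under every setting. The log2 fold change of *Mns1* (-0.22) was between -0.427 and 0.045 when each library was left out, and it changed sign without Cortex d, as did that of *Dnah5* (from -0.36 to 0.07), uncalled in either fit. The ratio of the summed levels, 2.75, was between 1.91 and 3.30 when each library was left out. Replicate letters do not pair the libraries (correlations of same-letter deviations between -0.173 and 0.266). With the letter as a replicate block, 12 genes were called higher in the cortex, and in the VPM 0 higher and 1 lower.

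In the VPM, the 1 gene called higher became 0 at an adjusted p under 0.05, without a filter, with the replicate block, and with the number series as a covariate, and the 1 called lower became 0 at an adjusted p under 0.05 and 2 with the number series (*Cfap54* added). Leaving out each library gave between 0 and 1 calls in either direction. DESeq2 called 1 gene lower in the dLG and 1 higher in the MGv, where edgeR called 0. The causes were not tested. Levels under 3 counts in most thalamic libraries limit what can be said of the 6 untested genes.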
